A study of Homo sapiens with 4 samples.

Results

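The mRNAs of the endoplasmic reticulum (ER) chaperones and of the unfolded protein response (UPR) were measured in TIA1 immunoprecipitates and in total RNA. The 10 genes were chosen by name: the ER chaperones HSPA5, HSP90B1, CALR, PDIA3 and PDIA4, and the stress sensors and transcription factors ERN1, ATF6, XBP1, ATF4 and DDIT3. Every probe other than a control whose accession maps to one of these symbols was taken, which gave 12 probes for the 10 genes among 24132 symbols on the array. Of the 10 genes, 9 passed the detection filter, and ERN1 did not.

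The study asked which transcripts associate with the RNA-binding protein TIA1 in esophageal squamous cell carcinoma, using KYSE180, an established cell line of that cancer. In the TIA1 RIP group (2 arrays), RNA was recovered from cytoplasmic lysates with an anti-TIA1 antibody. In the total RNA group (2 arrays), the RNA was the input, and the labels do not say whether it came from the cytoplasm or from whole cells. The cells of both groups carried no stated treatment or allele, and no immunoprecipitate with a control antibody was analysed here. The sources used here do not say whether the 2 replicates of a group came from separate cultures, so p-values measure the spread between these arrays only.

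The UPR is the program by which cells adjust the folding capacity of the ER. Its sensors sit in the ER membrane: IRE1 (encoded by ERN1) cuts the XBP1 mRNA so that a potent transcription factor is made, ATF6 travels to the Golgi and is cleaved to release a transcription factor, and PERK phosphorylates eIF2α, which lowers general translation and favours that of ATF4 and, downstream, of DDIT3 (CHOP). The chaperone genes are classical targets of ATF6 and XBP1. TIA1 binds U-rich stretches of mRNA and gathers with untranslated mRNAs in stress granules when eIF2α is phosphorylated.

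Sequences of the genes and of their promoters are shown first. The 5 chaperones are held in the ER by a retrieval signal at the end of the protein. The last 30 bases of the coding sequences of HSPA5, HSP90B1, PDIA3 and PDIA4 follow, read from GENCODE transcripts and checked against GRCh37, with the 4 codons of the signal in capitals and the stop codon after them.
HSPA5, chr9:127998871-127998900, minus strand: gaggatacagcagaaAAAGATGAGTTGtag
HSP90B1, chr12:104341411-104341440, plus strand: gaatctacagctgaaAAAGATGAATTGtaa
PDIA3, chr15:44063387-44063416, plus strand: aagaagaagaaggcaCAGGAGGATCTCtaa
PDIA4, chr7:148700886-148700915, minus strand: aaactgagcaggaccAAGGAAGAGCTTtga

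IRE1 removes 26 bases of coding sequence from the XBP1 mRNA, on the minus strand of chromosome 22. The segment shown is present in 1 GENCODE coding transcript of XBP1 and absent from the other. It starts after the letters CNGCAG (N, any base) and ends with them, and the capitals mark these last 6 bases. Its edges follow these letters and are not the exact cut positions. The array carries 1 XBP1 probe, printed in 10 spots and listed under the accession of the uncut form, and whether it separates the forms is not known.
XBP1, chr22:29192112-29192137, minus strand: cactcagactacgtgcacctCTGCAG

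The classical ER stress element, ERSE, joins a CCAAT box to CCACG over 9 bases (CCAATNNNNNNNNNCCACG). It was searched on both strands of the RefSeq promoters of GRCh38.p14, which run from 250 bases before to 50 bases after the gene start. Of 27305 symbols with a promoter, 25 (0.0916%) held it, among them 4 of the 9 members with a promoter: HSPA5, HSP90B1, CALR and XBP1. The sites are shown because they divide the chaperones, since no match was found in these windows for PDIA3 and PDIA4. The capitals mark the fixed letters, and a match is a description of the letters, not of binding.
HSPA5, 66 bases before the start, chr9:125241391-125241409: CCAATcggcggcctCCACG
HSP90B1, 194 bases before the start, chr12:103930216-103930234: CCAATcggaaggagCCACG
HSP90B1, 89 bases before the start, opposite orientation, chr12:103930321-103930339: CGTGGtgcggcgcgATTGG
CALR, 225 bases before the start, opposite orientation, chr19:12938384-12938402: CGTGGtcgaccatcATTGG
XBP1, 52 bases before the start, chr22:28800603-28800621: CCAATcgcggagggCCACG

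The shorter element ERSE-II (ATTGGNCCACG) was found on either strand in 19 symbols (0.0696%) and in none of the 9 members with a promoter. Of the further UPR genes described below, HERPUD1, HYOU1 and SDF2L1 held it.

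The U-rich stretches of the 3′ untranslated regions are shown because TIA1 prefers such sequence. The window of 30 bases richest in T was taken from each annotated 3′ UTR of GRCh37, with runs of 5 or more T in capitals. In the mRNA each T is a U.
ATF6, chr1:161931358-161931387, plus strand: ttaaTTTTTTTTTTTTTTTTTggtgggatt
HSPA5, chr9:127998362-127998391, minus strand: atgcttccagggaTTTTTTTTTTTTTTTTT
CALR, chr19:13054904-13054933, plus strand: TTTTTTTTTTTTTTTTTTaaactggtattt
PDIA4, chr7:148700752-148700781, minus strand: TTTTTTTTTTTTTTTaaTTTTTTatacttt
ATF4, chr22:39918650-39918679, plus strand: ctgtagctgtgtgttccaataaattatttt

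A link between these windows and the log2 ratios between the groups (TIA1 RIP over total RNA) was not tested. CALR and PDIA4 hold 76.7% and 83.3% T in their windows and ATF6 73.3%. Of the members kept, CALR had the lowest log2 ratio and ATF6 the highest, as given below. The ratio of CALR turned positive under quantile normalization, and ratios over all genes moved with GC content, so these values cannot decide the question. The whole 3′ UTR of ATF6, of 5416 bases, is 30.9% U and holds 7 AUUUA pentamers, that of CALR, of 576 bases, is 30.2% U and holds none, and that of ATF4, of 81 bases, is 33.3% U and holds none. The median over the genes kept was 29.4% U and 1174.5 bases, and 69.3% of them held an AUUUA pentamer.

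Signals below are log2 processed signals of single-colour Agilent arrays, with the 75th percentile of each array set to 0. A gene was kept where at least 1 of its probes exceeded background on the pair of arrays of either group, which left 13036 genes, and 9236 of them were detected on all 4 arrays. Total RNA replicate 2 stood apart before any comparison: its 75th percentile was 69.9 intensity units against 714 to 1514 on the other arrays, and 32.2% of its spots were well above background against 45.8% to 48.4%. No spot was saturated. All 10 markers of squamous epithelium were detected on all 4 arrays, while 1 of 6 fibroblast, 2 of 5 leukocyte and 2 of 4 endothelial markers passed the filter. Each array measured bulk RNA, so the number of cells and the RNA per cell cannot be told apart.

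HSPA5 encodes BiP, the main Hsp70 of the ER lumen and the protein that keeps the sensors inactive. Its scaled log2 signal was 2.43 and 4.05 in TIA1 RIP replicates 1 and 2 and 3.34 and 4.33 in total RNA replicates 1 and 2. The 2 groups overlapped, and the lowest of the 4 values was TIA1 RIP replicate 1. The log2 ratio between the groups, TIA1 RIP over total RNA, was -0.59 ± 0.92 (SE; limma adjusted p = 0.878), and without TIA1 RIP replicate 1 it was 0.22.

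HSP90B1 encodes GRP94, the Hsp90 of the ER. Its signal was 3.96 and 5.61 in TIA1 RIP and 5.13 and 2.502 in total RNA. Total RNA replicate 2 was the lowest of the 4, and both HSP90B1 probes fell there, by 2.70 and by 2.55 on the log2 scale from replicate 1. The log2 ratio was 0.97 ± 1.12 (SE; limma adjusted p = 0.840), and without total RNA replicate 2 it was -0.35.

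CALR encodes calreticulin, the lectin chaperone that holds newly made glycoproteins and stores calcium. Its signal was 7.39 and 7.91 in TIA1 RIP and 8.12 and 10.79 in total RNA, so both immunoprecipitates lay below both total RNA arrays. The log2 ratio of -1.81 ± 1.05 (SE) did not pass (limma adjusted p = 0.776), and it turned to 0.36 under quantile normalization. Without total RNA replicate 1 the ratio was -3.15 (limma adjusted p = 0.0235), in a setting where 29.9% of all genes passed and the lone total RNA array was assumed to vary like the TIA1 RIP arrays. Without total RNA replicate 2 it was -0.48 (limma adjusted p = 0.701).

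PDIA3 (ERp57) and PDIA4 (ERp72) are disulfide isomerases, the first of which works with calreticulin. PDIA3 had the narrowest range of the 9 genes, at 3.21 and 3.59 in TIA1 RIP and 3.32 and 3.17 in total RNA, for a log2 ratio of 0.16 ± 0.77 (SE; limma adjusted p = 0.965). Its 2 probes went in opposite directions, with log2 ratios of -0.32 and 0.64. PDIA4 was at 3.43 and 4.61 in TIA1 RIP and 2.96 and 5.05 in total RNA, and its log2 ratio of 0.01 ± 1.00 (SE; limma adjusted p = 0.998) averaged replicates that were far apart in both groups. The ratio of PDIA4 was -1.03 without total RNA replicate 1 and -0.58 without TIA1 RIP replicate 2, and that of PDIA3 was -0.030 without TIA1 RIP replicate 2.

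Of the sensors, ERN1 was not well above background on any array. Its single probe read between 22.5 and 97.2 intensity units, and no ratio is given. ATF6 (chr1:161736088-161947364, GRCh37, plus strand) was the member whose signals separated upward: 4.50 and 4.74 in TIA1 RIP against 3.20 and 3.17 in total RNA. All 4 pairs of a TIA1 RIP with a total RNA array gave a log2 ratio between 1.30 and 1.57.

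The log2 ratio of ATF6 over the means was 1.43 ± 0.77 (SE), a 2.70-fold difference that did not pass the test (limma adjusted p = 0.776). It was higher than that of 90.0% of the genes kept and stayed above 0 under quantile normalization (1.87). With the E1A spike-ins as reference it was 6.25, but the median of all genes was then 4.78, so its sign there says little. Relative to that median it was 1.47. With GC content removed it was 0.67, below that of DDIT3 (1.16). The total RNA replicates of ATF6 then differed by 1.33 and the TIA1 RIP replicates by 0.18, and the 2 groups overlapped. A gene of low GC content tended to show a higher ratio on these arrays: ATF6, at 41.2% GC, belongs to the 2729 genes at or under 42% whose median log2 ratio was 1.06, against -0.69 for the 5075 genes over 52%.

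XBP1 encodes the transcription factor that IRE1 activates. Its signal was 4.45 and 5.85 in TIA1 RIP and 3.95 and 5.92 in total RNA, with replicate 2 higher in both groups. The log2 ratio was 0.22 ± 1.00 (SE; limma adjusted p = 0.962). It turned to -0.77 without total RNA replicate 1 and to -0.48 without TIA1 RIP replicate 2.

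ATF4, the factor translated when eIF2α is phosphorylated, was at 5.79 and 5.89 in TIA1 RIP and 6.19 and 6.57 in total RNA. The immunoprecipitates lay below total RNA by a small margin, with a log2 ratio of -0.54 ± 0.77 (SE; limma adjusted p = 0.868) that turned to 0.41 under quantile normalization. DDIT3 encodes CHOP, the pro-apoptotic factor downstream of ATF4. It was at -0.37 and 1.09 in TIA1 RIP and -0.97 and -0.33 in total RNA. TIA1 RIP replicate 1 and total RNA replicate 2 were nearly level, and the log2 ratio was 1.01 ± 0.87 (SE; limma adjusted p = 0.788). With GC content removed it was 1.16, the highest of the members.

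**Figure D1:**
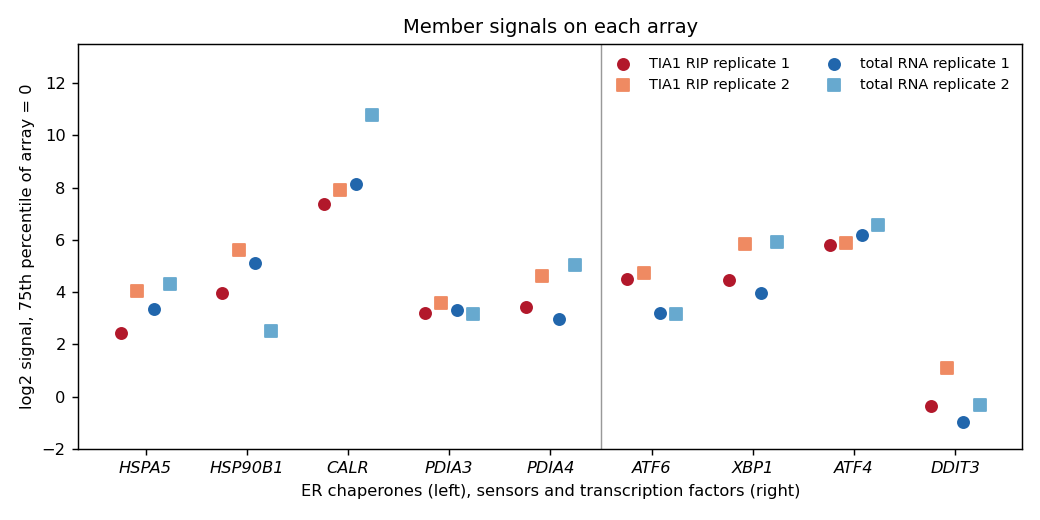
Scaled log2 signal (vertical axis, 75th percentile of each array at 0) of the 9 members kept, 1 point per array. On this scale both TIA1 RIP points lie above both total RNA points for ATF6 and below them for CALR and ATF4. The groups overlap for the others. The separations of CALR and ATF4 did not hold under quantile normalization, and those of ATF6 and ATF4 did not hold with GC content removed. Levels of different genes come from different probes and are not comparable.

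Across the 9 members, both immunoprecipitates lay above both total RNA arrays in 1 gene (ATF6), and this held for 19.4% of all genes. With GC content removed the groups of ATF6 overlapped. The immunoprecipitates lay below in 2 genes, CALR and ATF4, against 21.7% of all genes. The mean ratio of both turned positive under quantile normalization, and the groups of ATF4 overlapped with GC content removed. No member passed the adjusted threshold of 0.05 in limma, nor did any gene (0.0%), and no member reached an unadjusted p under 0.05, which 1.1% of genes did as higher and 4.02% as lower. With the E1A spike-ins as reference, where the median of all genes was 4.78 and 8419 genes passed as higher, 6 members passed as higher. With 2 arrays a group, an exact permutation test cannot go below a two-sided p of 0.333, so none was run.

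The study scored enrichment relative to GAPDH, the glycolytic enzyme, and took 2.5-fold as its threshold. It required this both on arrays and by sequencing of the immunoprecipitates. The sequencing was not used here, so the counts below apply the threshold to the arrays alone. GAPDH itself was at 6.49 and 6.69 in TIA1 RIP and 7.67 and 9.63 in total RNA, so its own log2 ratio was -2.06. Relative to it, 8 of the 9 members passed 2.5-fold on the means, as did 72.4% of all genes. ATF6 stood at 11.3-fold, DDIT3 at 8.41-fold, HSP90B1 at 8.15-fold, XBP1 at 4.85-fold, PDIA3 at 4.66-fold, PDIA4 at 4.20-fold, ATF4 at 2.87-fold and HSPA5 at 2.77-fold. CALR, at 1.19-fold, was the member below the threshold. In a limma fit on values relative to GAPDH, the adjusted p of the members ranged from 0.221 to 0.773.

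The number of members that passed changed with the total RNA array and with the TIA1 RIP array used. Of the 9, 4 passed with TIA1 RIP replicate 1 over total RNA replicate 1 (46.0% of all genes) and 6 with TIA1 RIP replicate 2 over the same array (40.0%). Against total RNA replicate 2 the counts were 7 (76.7%) and 8 (77.7%). GAPDH, with 56.1% GC, rose by 1.96 on the log2 scale from total RNA replicate 1 to replicate 2. The same change of array took HSP90B1 from 0.01 to 4.60 on the log2 scale relative to GAPDH in TIA1 RIP replicate 1, and PDIA3 from 1.07 to 3.19. Without total RNA replicate 2, 4 of the 9 members passed on the means, against 42.3% of all genes.

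PDIA4, ATF6, XBP1 and DDIT3 were past 2.5-fold in all 4 pairs, which is 4 of 9 members against 26.2% of all genes. The lowest pair of PDIA4 was at 1.52 on the log2 scale relative to GAPDH and that of XBP1 at 1.68, both near the threshold of 1.32. The lowest pair of DDIT3 was at 1.78, and that of ATF6 at 2.48.

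**Figure D2:**
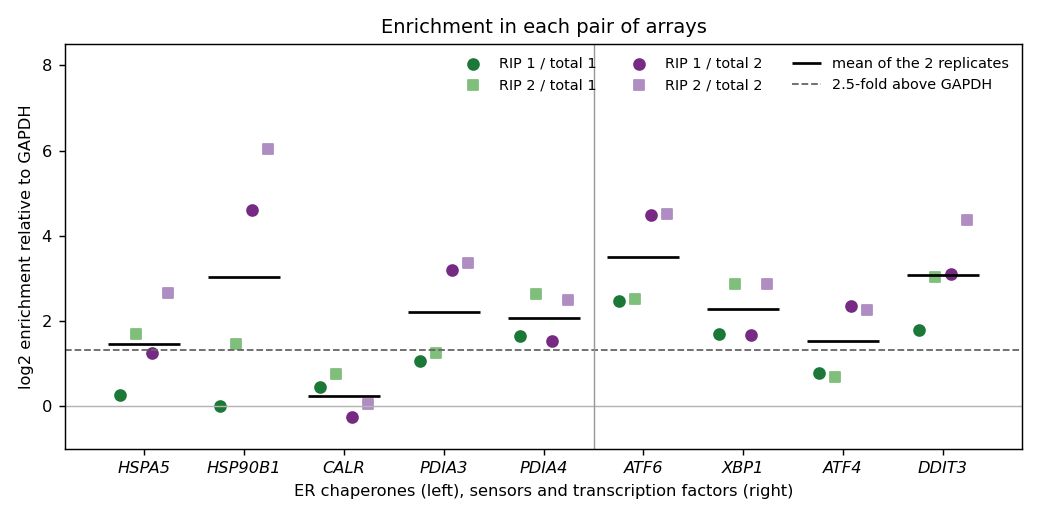
Log2 enrichment of each member relative to GAPDH (vertical axis) in the 4 pairs of a TIA1 RIP and a total RNA array (points) and on the group means (bars), with the 2.5-fold threshold dashed. Points of PDIA4, ATF6, XBP1 and DDIT3 all lie above the threshold, those of CALR all lie below it, and pairs with total RNA replicate 2 lie higher for HSP90B1, PDIA3, ATF6, ATF4 and DDIT3.

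The chaperones were then set against the sensors and transcription factors, a difference that does not change with a constant shift of a whole array or with the reference gene. The median log2 ratio was 0.01 over the 5 chaperones and 0.62 over the 4 sensors and transcription factors kept, and -0.04 over all genes. The difference of the medians was -0.60 on the means. In the 4 pairs it was -1.29, -1.22, -1.24 and -0.95, each with the chaperones lower, and with GC content removed it was -0.85. It was smaller with normexp background correction (-0.32) and with no detection filter (-0.21), where ERN1 entered. The other chaperones and the other sensors described below stood in the opposite order, with medians of 0.37 and -0.06. With GC content removed the medians of these 2 lists were -0.019 and 0.375, in the same order as the members. The groups overlapped gene by gene, since the chaperones ran from -1.81 (CALR) to 0.97 (HSP90B1) and the others from -0.54 (ATF4) to 1.43 (ATF6). These genes share the arrays and are not replicates, so no test was made.

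The replicates of total RNA differed in step with base composition. Over the 11628 genes with a GC content (89.2% of those kept), Pearson's r between GC content and the difference of total RNA replicate 2 from replicate 1 was 0.694, and for the TIA1 RIP arrays it was 0.067. These are correlations across genes of the same arrays, which are not independent replicates. The SD of the difference over genes was 2.00 for total RNA and 0.89 for TIA1 RIP.

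Among the members, CALR, PDIA4 and XBP1 were over 2-fold higher on total RNA replicate 2, as were 38.6% of all genes, with log2 differences of 2.67, 2.09 and 1.97. HSP90B1, at 41.8% GC, was the member over 2-fold lower there, with a log2 difference of -2.63, and PDIA3 and ATF6 were nearly level at -0.16 and -0.03. With GC content removed, 5 members (HSPA5, CALR, PDIA4, ATF6 and XBP1) were over 2-fold higher on total RNA replicate 2, against 21.1% of genes. GC content moved with these values, and its part in the result of a single gene was not tested.

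**Figure D3:**
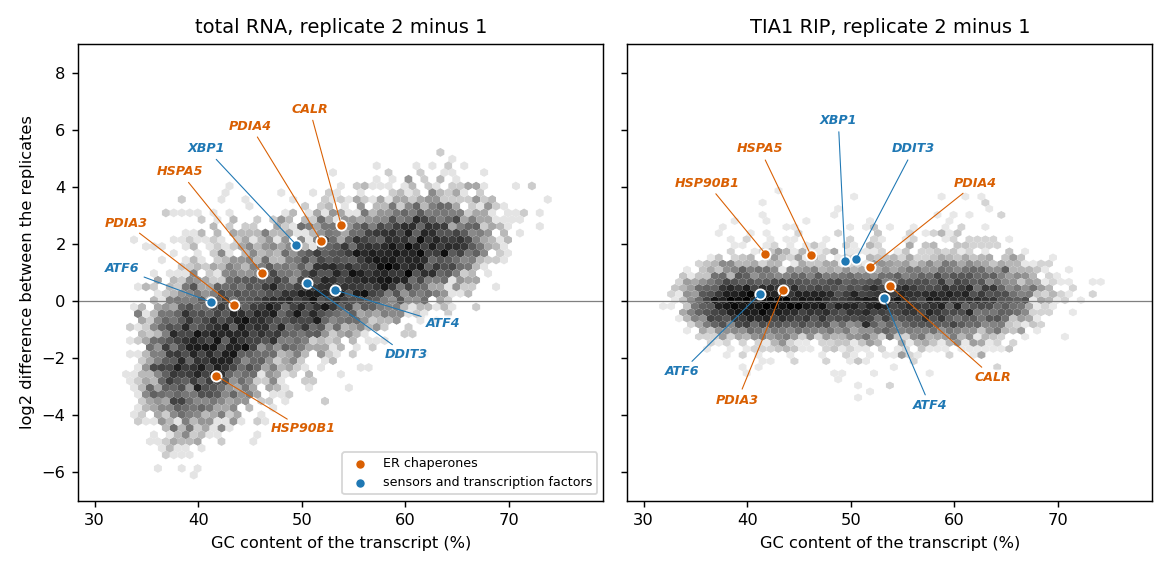
Difference between the replicates (vertical axis, log2) against the GC content of the transcript (horizontal axis, %), for total RNA on the left and TIA1 RIP on the right, with all genes in grey (darker, more genes). For total RNA the cloud rises with GC content (r = 0.694) with CALR the highest and HSP90B1 the lowest of the members, while for TIA1 RIP it is flat (r = 0.067) and all 9 members lie above 0.

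The immunoprecipitates differed from each other for several members, a comparison made after the values had been seen. All 9 members were higher in TIA1 RIP replicate 2 than in replicate 1, as were 52.3% of all genes. For 5 of them the difference was over 2-fold: HSP90B1 (3.14-fold), HSPA5 (3.07-fold), DDIT3 (2.74-fold), XBP1 (2.63-fold) and PDIA4 (2.27-fold). Of all genes, 11.1% were over 2-fold higher and 7.91% over 2-fold lower, and no member was over 2-fold lower. ATF4 and ATF6 differed little, with log2 differences of 0.11 and 0.23. With 1 array on each side, this difference has no replicate check.

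Before GC content was removed, PDIA4 and XBP1 were over 2-fold higher on replicate 2 in both groups, as were 1067 of 13036 genes. HSPA5 differed by 0.98 in total RNA. Once GC content was removed, HSPA5, PDIA4 and XBP1 were over 2-fold higher in both groups, as were 6.11% of genes. For HSPA5 the differences were then 1.57 in TIA1 RIP and 1.45 in total RNA. DDIT3 differed by 1.41 in TIA1 RIP and by 0.32 in total RNA. Whether the cultures behind the replicate numbers were shared is not stated.

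**Figure D4:**
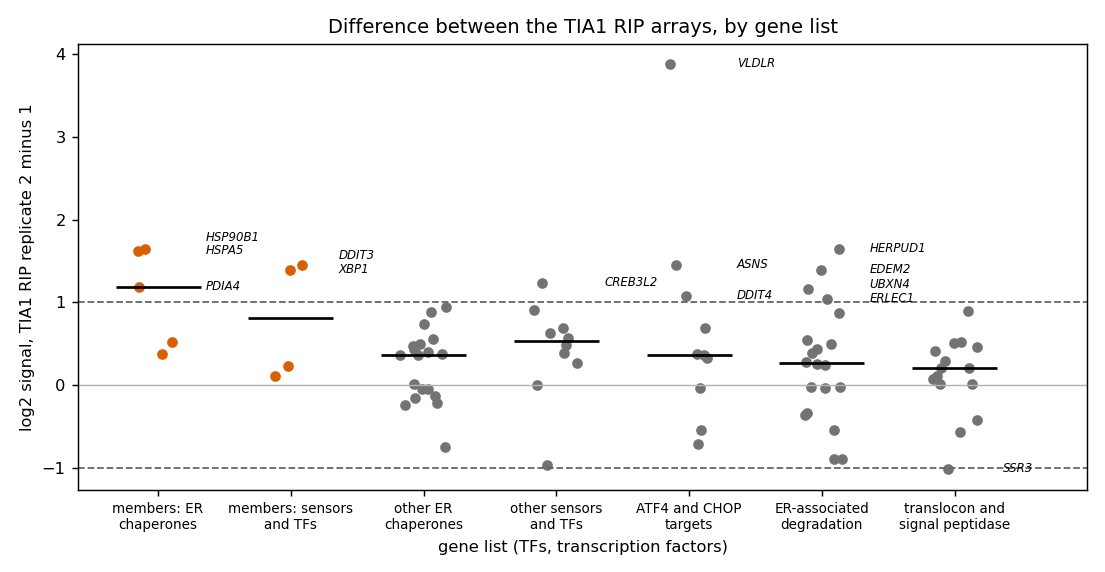
Log2 difference of TIA1 RIP replicate 2 from replicate 1 (vertical axis) by gene list, 1 point per gene kept, with the median as a bar and 2-fold in either direction dashed. The members (orange) lie between 0.11 and 1.65, with 5 of 9 over 2-fold higher, while 8 of the 74 further genes (grey) pass 2-fold upward and 1 downward.

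The 4 members with an ERSE in the promoter window differed by 1.62 (HSPA5), 1.65 (HSP90B1), 1.40 (XBP1) and 0.52 (CALR) on the log2 scale between the immunoprecipitates. Of the further genes with the element, CANX differed by -0.24, CRELD2 by 0.56 and PDIA6 by 0.95, and ERO1B was not detected. HERPUD1, with ERSE-II, differed by 1.65, and HYOU1 and SDF2L1 by 0.37 and 0.47. Carrying an element thus went with differences from below 0 to above 2-fold.

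The rest of the pathway was read from 5 further lists of 77 genes, 74 of which were kept. ERN2, ERO1B and SEC62 were not. Relative to GAPDH, 58 of the 74 passed 2.5-fold on the means (72.4% of all genes), and 32 did so in all 4 pairs (26.2% of all genes). Both immunoprecipitates lay above both total RNA arrays in 22 genes and below in 14, against 19.4% and 21.7% of all genes. None passed the adjusted threshold in limma, and at an unadjusted p under 0.05 DNAJB9 and TRAM1 were higher and NPLOC4 and SSR4 lower. The DNAJB9 probe was detected on 1 of the total RNA arrays and passed the filter through TIA1 RIP, and 1 NPLOC4 probe passed through total RNA alone. In TIA1 RIP replicate 2, 8 of the 74 were over 2-fold higher than in replicate 1, which is close to the 11.1% of all genes, and SSR3 was over 2-fold lower.

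Among 19 other chaperones and folding enzymes kept, the median log2 ratio was 0.37. ERO1A, the oxidase that recharges disulfide isomerases, had the highest ratio of those detected on all 4 arrays, at 1.31. It was 0.11 and -0.05 in the pairs with total RNA replicate 1 and 0.21 with GC content removed. HYOU1, an exchange factor of BiP, followed at 1.14, between 0.68 and 1.61 in the 4 pairs. SDF2L1 (-1.78) and PPIB (-1.53), a cyclophilin of the ER, had the lowest. None of these 4 passed in limma (adjusted p from 0.776 to 0.779).

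Among 10 other sensors, proteases and transcription factors, the median was -0.06. CREB3L2 (0.45, with 0.91 and -0.02 for its 2 probes) and CEBPB (0.39) had the highest ratios of those detected throughout, and CREB3 (-1.45) and ATF6B (-1.35) the lowest. The highest ratio of the 10, at 1.37, belonged to EIF2AK3, which encodes PERK. Its probe was not detected on total RNA replicate 2. ATF6B is the close relative of ATF6. It was at -0.44 and 0.04 in TIA1 RIP against 0.81 and 1.49 in total RNA, so the pair of ATF6 genes separated in opposite directions. Under quantile normalization the ratio of ATF6B was -1.19, while with the E1A spike-ins as reference, which moved the median of all genes to 4.78, it was 3.47, or -1.32 relative to that median. The transcript of ATF6B has 57.6% GC and that of ATF6 41.2%. With GC content removed the ratio of ATF6B was -0.67 and that of ATF6 0.67, and the groups of ATF6 overlapped.

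The ATF4 and CHOP target genes, 10 of 10 kept, had a median of 0.27. SLC7A11, the cystine transporter, was the highest at 1.47, with a signal of 0.79 on total RNA replicate 2 against 4.35 to 5.51 on the other arrays. Its pairs with total RNA replicate 1 were at -0.62 and -1.16. DDIT4, an inhibitor of mTORC1, followed at 1.16. TRIB3 (-1.65) and ASNS (-0.90), the asparagine synthetase, were the lowest.

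The 20 genes of ER-associated degradation had a median of 0.32. Of those detected on all 4 arrays, RNF139 (1.77) and DERL1 (1.42), a channel component, were the highest. The highest ratio of the 20, at 2.23, belonged to a gene not detected on all 4 arrays. VCP, the ATPase that extracts proteins from the ER, was at -1.72. NPLOC4, a cofactor of VCP, had the lowest mean ratio, -3.13 over its 2 probes, but one of them was not well above background on either TIA1 RIP array and had been kept through total RNA. The probe detected on all 4 arrays was at 5.62 and 4.56 in TIA1 RIP against 6.03 and 6.27 in total RNA, a log2 ratio of -1.06.

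The translocon and signal peptidase genes had the highest list median, 0.87 over 15 genes, which fell to 0.23 with GC content removed. TRAM1 was at 5.33 and 5.35 in TIA1 RIP against 3.80 and 0.49 in total RNA, a log2 ratio of 3.20. Of the genes detected on all 4 arrays, SPCS2 followed at 1.73. SSR4 (-2.68) and SSR2 (-0.39), subunits of the translocon-associated protein complex, were the lowest. TRAM1 has 36.8% GC and SSR4 59.0%.

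The genes of these lists whose profile over the 4 arrays was most like that of HSPA5 were ASNS, NFE2L1 and HERPUD1, at Euclidean distances of 0.435, 0.720 and 0.766 between deviations from the mean of each gene. ASNS was at 3.19 and 4.65 in TIA1 RIP and 4.14 and 5.51 in total RNA. HERPUD1, a classical UPR target of the degradation pathway, was at 3.86 and 5.51 in TIA1 RIP and 4.42 and 6.46 in total RNA. In both, as in HSPA5, replicate 2 was the higher array of each group, a likeness for which these genes were picked.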

How the data were processed

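RNA captured with the TIA1 antibody from KYSE180 cytoplasm and total RNA were hybridized to 2 single-colour Agilent arrays each. The authors deposited Agilent Feature Extraction 10.7.1.1 output, which holds for each spot an intensity on a linear scale, background-subtracted but not normalized between arrays. Other columns deposited by the authors flag spots as uneven, deviant, saturated or above background, and were used as filters. The scaling the authors applied afterwards is not given in the sources used here.

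The log2 processed signal minus the 75th percentile of the array was used, after leaving out 299 to 382 flagged spots per array. Spots were averaged per probe. Probes with a share of 0.5 or more of their spots above background, on the 2 arrays of either group, were kept (20106 probes), and the kept probes of a gene were averaged. Symbols were matched to 34506 of 50599 probes (68.2%) through RefSeq accessions and GENCODE transcripts (GRCh37, as in the file headers). limma 3.58.1 in R 4.3.3 (lmFit, eBayes) was fitted over all genes, with Benjamini-Hochberg adjustment. GC content was removed per array by loess. All 4 arrays were scanned on 1 slide. With 2 arrays a group, the number of arrays limits the precision.

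The members, the gene lists and the alternatives were chosen with earlier results of these data known. Named genes were the 10 members, GAPDH, the 2 highest and 2 lowest ratios of each further list among genes detected on all 4 arrays, and the 3 profiles nearest to HSPA5. Other genes named in the text were picked for a count, a list maximum or a promoter match after their values were seen. The deposited files hold the median but not the mean spot intensity, so the normexp alternative used the median. A coding sequence of 1 member is not reported here.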

Additional observations from a re-analysis of the deposited data

How the results depend on the processing

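The alternatives varied how arrays were scaled and background-corrected, which probes entered, the reference for enrichment, the GC content and the replicate block, or left out an array. All 4 arrays shared 1 slide and scan, so a slide or scan block could not be run. The chaperones stayed below the sensors and transcription factors under each alternative. The E1A reference, which shifts whole arrays, and the replicate block alone could not change this difference. The difference of -0.60 moved to -0.32 with normexp, -0.21 with no detection filter, -0.93 with the brightest probe and -0.85 with GC content removed, with or without the block. With an array left out it ran from -1.37 to -0.48. The chaperone median ran from -1.03 to 0.35 and that of the sensors and transcription factors from -0.10 to 1.27 with an array left out. With the E1A spike-ins as reference they were 4.83 and 5.44, the median of all genes moved to 4.78, and 8419 genes passed as higher, with 6 members among them (ATF6, DDIT3, HSP90B1, XBP1, PDIA3 and PDIA4). On that scale HSPA5 (4.23), CALR (3.01) and ATF4 (4.28) turned positive. Relative to the median of all genes they were at -0.55, -1.78 and -0.50. Quantile normalization moved the median of all genes to 0.26 and turned CALR (0.36) and ATF4 (0.41).

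Of the 9 members, 8 passed 2.5-fold above GAPDH. The count was 4 under quantile normalization (33.7% of all genes), 5 with GC content removed, with or without the block (60.4%), and 1 against the median of all genes (12.7%). With an array left out it ran from 4 to 8, and the 4 came without total RNA replicate 2, when 42.3% of all genes passed. PDIA3 turned to -0.32 with the brightest probe and to -0.38 with GC content removed, with or without the block. With an array left out, HSPA5 ran from -1.40 to 0.22 (the latter without TIA1 RIP replicate 1), PDIA3 from -0.030 (without TIA1 RIP replicate 2) to 0.35, and HSP90B1 from -0.35 (without total RNA replicate 2) to 2.28. PDIA4 ran from -1.03 to 1.06 and XBP1 from -0.77 to 1.20, and both were negative without TIA1 RIP replicate 2 or total RNA replicate 1. The cause of these changes was not tested.

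No gene passed in limma with all arrays (144 higher and 524 lower at an unadjusted p under 0.05). With an array left out, 0 to 1847 passed as higher and 0 to 2050 as lower, the most without total RNA replicate 1. The replicate numbers pair the arrays by number only. Over genes, the deviations of same-numbered arrays from their group means had a correlation of 0.453. In the fit that took this number as a replicate block, 57 genes passed as higher and 299 as lower, with no member among them. Of the further genes, TRAM1 (adjusted p = 0.017) and NPLOC4 (adjusted p = 0.022) passed, the latter with a probe not well above background in TIA1 RIP. With the block and GC content removed no gene passed (lowest adjusted p = 0.267, with 1071 higher and 1000 lower at an unadjusted p under 0.05).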
